A study of Mus musculus with 4 samples.

Results

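The comparison described here is the one between heart libraries without pressure overload. A library of heart tissue with a cardiac deletion of WW45 was set against a library of control heart tissue. It was made gene by gene, as the log2 value in the first minus that in the second. The comparison uses 2 of the 4 libraries of the series and all 12408 genes of the deposited tables. Both libraries were from mice of the C57BL/6 strain, 3 months old, that carried floxed alleles of WW45 (flox/flox). The labels do not give the number of hearts per library. The control, labelled CT, carried nothing further. The knockout, labelled WW45cKO and written cKO here, also carried a Cre recombinase under the alpha-MHC promoter, which is active in cardiomyocytes, so the other cells of the heart keep the gene. No library carries Cre alone, so effects of Cre and of the deletion cannot be told apart. The other 2 libraries had the same genotypes after a 4-week transverse aortic constriction (TAC), a surgical narrowing that loads the left ventricle, and are used here only to set the baseline values beside a second pair that shares no library with them.

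WW45, listed under its gene symbol Sav1, is a scaffold of the Hippo pathway. It binds the kinases MST1 and MST2 (genes Stk4 and Stk3), which activate LATS1 and LATS2, and these phosphorylate the coactivators YAP and TAZ and keep them out of the nucleus, where they would otherwise switch on genes through the TEAD transcription factors. In heart muscle the pathway is known for its part in growth, in the limited division of adult cardiomyocytes and in the response to injury.

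Each group was 1 library, so a difference is a difference between 2 libraries. There is no replicate check and no p-value, and the spread between hearts was not measured. The values are normalised read counts (CPM, read counts scaled to a common library size) on a log2 scale, from which reads were recovered: 2796547 in the CT library and 1587840 in the cKO library, with a median of 48 and 30 reads per gene. Intervals are 95% counting intervals. They cover counting error only, and PCR copies of a read do not count as further molecules. A gene was called apart when the deposited values differed at least 2-fold and the counting interval of the ratio excluded 1. Sav1 (chr12:69965012-69987002, mm10) had 49.3 CPM in CT and 39.8 CPM in cKO, from 133 and 65 reads. Its ratio had an interval of 0.59 to 1.09, so the library labelled cKO was not set apart by this gene. In the TAC libraries Sav1 had 35.4 CPM in the one labelled CT and 46.2 CPM in the one labelled cKO, the opposite order. A value per gene does not show whether the floxed part lost its reads, and the directions below are those of the libraries as labelled. The 8 cardiomyocyte markers were all present, with a summed level of 127955 CPM in CT and 109262 CPM in cKO.

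In all, 628 of the 12408 genes (5.06%) were called apart, 404 higher in cKO (3.26%) and 224 lower (1.81%). The genes were evenly split around 0, since 50.3% of all genes had a log2 ratio above 0 and 49.6% below, with a median of 0.00. The excess of higher calls lay among genes with few reads. Of the 3607 genes with fewer than 20 reads in the higher library, 196 were called higher and 24 lower, while of the 8801 genes with at least 20 reads 208 were called higher and 200 lower. The library labelled cKO was the shallower one, and the part of depth in this split was not tested. At any fold, the interval excluded 1 for 19.6% of genes, 9.19% higher and 10.4% lower. The genes nearest the 2-fold limit were Efhd2, just inside with 48 reads in CT and 59 in cKO (log2 ratio 1.00), and Prdm16, just outside with 64 and 19 reads (-1.0).

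**Figure D1:**
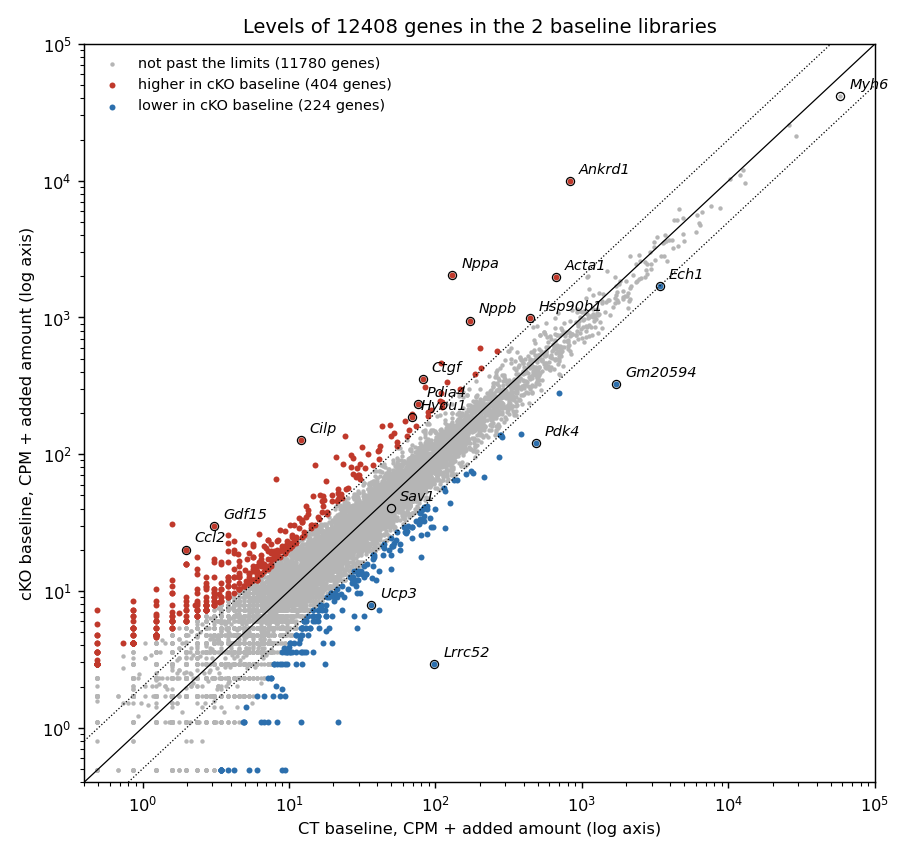
Level of each of the 12408 genes in the CT baseline library (horizontal, CPM plus the added amount, log axis) against the cKO baseline library (vertical, same scale); the solid line marks equal levels, the dotted lines a 2-fold difference, and named genes are ringed. The 404 higher genes include Ankrd1, Nppa and Nppb far above the line, the 224 lower genes include Lrrc52, Gm20594 and Pdk4 below it, and Sav1 lies within the cloud.

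Among called genes with at least 20 reads, the highest ratios belonged to genes of mixed kinds. Besides the stress genes described below they included Cilp, a matrix protein, which had 11.5 CPM in CT and 127 CPM in cKO, a log2 ratio of 3.41 (interval 7.53-fold to 16.6-fold). Comp, another matrix protein, had 3.34 CPM in CT and 25.1 CPM in cKO, 6.68-fold higher. Lcp1, an actin-bundling protein of leukocytes, had 14.5 CPM in CT and 83.2 CPM in cKO (5.6-fold higher, interval 4.0 to 8.44). Cd48, a surface protein of leukocytes, had 4 reads in CT and 25 in cKO. Ckmt1, a mitochondrial creatine kinase, had 4 reads in CT and 32 in cKO, and Klhdc7a had 4 and 25. Sumo2 had the largest log2 ratio of all (4.28, with 3 reads in CT and 50 in cKO). It encodes a ubiquitin-like protein with close copies elsewhere in the genome, as does the pseudogene Gm4832 (5 and 28 reads) with its own source gene, so both values are uncertain.

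At the other end stood Lrrc52 (chr1:167445669-167466780), an auxiliary subunit of potassium channels, with 97.9 CPM in CT and 2.45 CPM in cKO. That is a log2 ratio of -5.07 from 264 reads against 4. Clcn1, the chloride channel of skeletal muscle, had 24 reads in CT and 0 in cKO. That is 4.85-fold lower with 3 reads per library taken as the floor, and the interval of the ratio ended at 0.274. Klhl33, a kelch-like protein, had 46 reads in CT and 4 in cKO. Pfkfb1, which makes the activator of phosphofructokinase, had 40.4 CPM in CT and 6.73 CPM in cKO. Gm20594, a short predicted gene, had the largest loss in CPM after Ech1 among called genes, from 1703 to 325 CPM. The histone genes Hist2h2ac (23 reads in CT, 0 in cKO) and Hist2h2ab (22 and 2) have near-identical copies, and so does Acaa1b (52 and 6), a peroxisomal thiolase, so these values are uncertain.

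Natriuretic peptide and stretch genes were higher in cKO on many reads. Nppa (chr4:148000722-148002079), the atrial natriuretic peptide, had 129 CPM in CT and 2035 CPM in cKO, from 349 and 3327 reads. Its neighbour Nppb (chr4:147985788-147987205), the brain natriuretic peptide, had 171 CPM in CT and 949 CPM in cKO, with some shared reads. Ankrd1 (chr19:36111961-36120099), an ankyrin repeat protein of the sarcomere that responds to stretch, had 827 CPM in CT and 9962 CPM in cKO, and its gain in CPM exceeded that of any other called gene. Of the 6 measured markers of atrial tissue Nppa was the only one above 0, and their median was -0.42. Both peptides and Ankrd1 lay above the CT library by far more than the counting error. Ankrd2, its relative in skeletal muscle, had 0 reads in CT and 11 in cKO. That is 6.05-fold higher against the floor of 3 reads, and the interval of the ratio began at 4.14.

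Of the 17 measured stress and fetal genes, 7 were called higher and 1 lower (47.1% called against 5.06% of all genes), and their median log2 ratio was 0.86 against 0.00 over all genes. Acta1 (chr8:123891769-123894751), the skeletal alpha-actin of the fetal heart, had 661 CPM in CT and 1976 CPM in cKO, a 2.99-fold difference (interval 2.82 to 3.17). Gdf15, a secreted stress cytokine, had 2.59 CPM in CT and 29.4 CPM in cKO. Nmrk2, a nicotinamide riboside kinase, had 1 read in CT and 8 in cKO (ratio 6.26, interval 1.77 to 586). The 1 lower gene was Srxn1, a sulfiredoxin, with 13 reads in CT and 0 in cKO. That is 2.63-fold lower against the floor of 3 reads, and the interval of the ratio ended at 0.541. The myosin switch that often goes with this group was small here. Myh7, the fetal and slow heavy chain, had 4459 CPM in CT and 5194 CPM in cKO (log2 ratio 0.22), and Myh6, the adult heavy chain, had 57903 CPM in CT and 41570 CPM in cKO (-0.48). Neither was called.

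In the sarcomere list, 3 of 32 measured genes were called higher and 1 lower (12.5% called against 5.06% of all genes). The median was 0.08. Besides Acta1 and Ankrd1 the higher gene was Synpo2l, a Z-disc protein, with 83.8 CPM in CT and 308 CPM in cKO and some shared reads. The lower one was Pdlim3, the actinin-associated LIM protein of the Z-disc, with 14.1 CPM in CT and 3.06 CPM in cKO. Myot, the Z-disc protein myotilin, which is not on the list, had 279 CPM in CT and 138 CPM in cKO. None of the 28 calcium handling genes was called (median -0.11), and Atp2a2, which pumps calcium back into the sarcoplasmic reticulum, had a log2 ratio of -0.45 with some shared reads. The differences past 2-fold in these lists therefore belonged to actin and Z-disc genes.

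**Figure D2:**
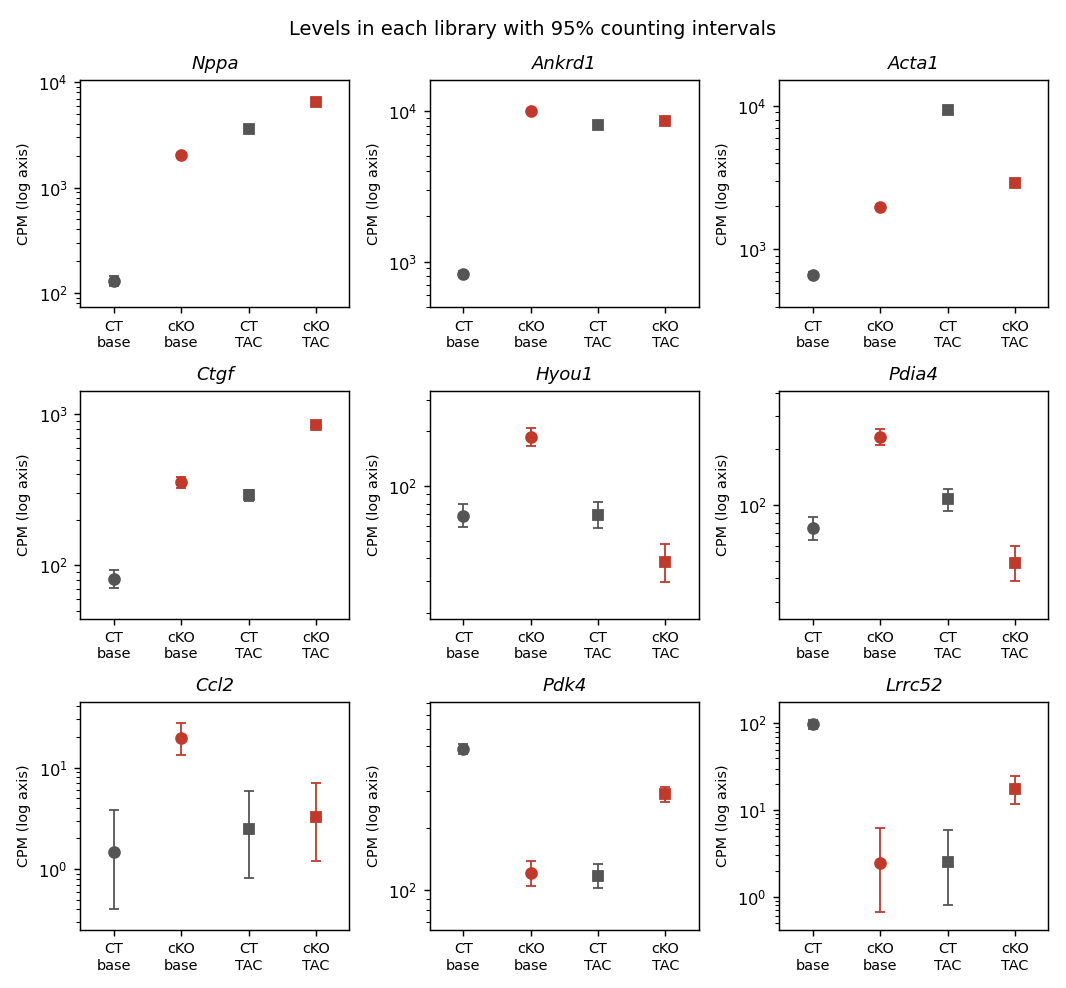
Level in CPM (log axes, scaled per panel) of 9 genes in the 4 libraries, CT and cKO at baseline (circles) and under TAC (squares), with 95% Poisson counting intervals as bars, which do not cover variation between hearts. In the baseline pair Nppa, Ankrd1, Acta1, Ctgf, Hyou1, Pdia4 and Ccl2 are higher in cKO and Pdk4 and Lrrc52 lower; in the TAC pair Acta1, Hyou1 and Pdia4 are lower in cKO and Pdk4 and Lrrc52 higher.

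Genes of the Hippo pathway itself differed little. Of 23 measured members, 2 were called higher, a share of 8.70% against 5.06% of all genes, and the median log2 ratio was -0.01. Taok1, a kinase that activates MST1 and MST2, had 12.2 CPM in CT and 26.3 CPM in cKO, and Amot, which holds YAP outside the nucleus, had 5.75 CPM in CT and 12.8 CPM in cKO with shared reads. Apart from Taok1, which the list groups with the adaptors, the 6 genes listed as kinases lay between -0.70 and 0.25, and none of these was called. Both calls were lost with 5 CPM added to each value and with a counting interval that leaves out 0.1% in place of 5%. Yap1 itself had 116 CPM in CT and 82.6 CPM in cKO, a ratio with an interval of 0.579 to 0.877.

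Of 19 measured YAP and TEAD targets, 5 were called higher and 0 lower (26.3% called against 5.06% of all genes), with a median of 0.19. Beside Ankrd1, Ctgf, a secreted matricellular growth factor modulator, had 81.2 CPM in CT and 354 CPM in cKO (4.34-fold higher, interval 3.73 to 5.12). Tgfb2, a ligand of the TGF-beta family, had 3.34 CPM in CT and 22 CPM in cKO. Ccdc80, a secreted matrix protein, had 40.8 CPM in CT and 107 CPM in cKO, and the kinase gene Nuak2 had 7 and 14 reads. Cyr61, the close relative of Ctgf and a textbook target, had 94.2 CPM in CT and 81.4 CPM in cKO, and was not among the higher genes. Several of the higher targets are also genes of stress or of matrix, and the list does not separate these.

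The promoter of Ankrd1 is shown because this gene led the targets and holds the TEAD element more than once. The element searched was GGAATG on either strand (CATTCC in reverse), in the 250 bases before each RefSeq start of build GRCm38.p6. It was present in 14.4% of 27025 promoters of all RefSeq genes, in 13.1% of the measured genes, in 15.6% of those called higher and 16.6% of those called lower, and in 6 of 12 target promoters. Genes called apart at baseline thus held it about as often as any gene. Only 12 of the 19 measured targets had a matched promoter, and Ctgf was not among these. The list holds known targets, so its own share is no independent finding. Capitals mark the matches, which begin 210 and 123 bases before the start, at chr19:36119845-36120094, minus strand. A match is a description of letters and not a binding site.
Ankrd1: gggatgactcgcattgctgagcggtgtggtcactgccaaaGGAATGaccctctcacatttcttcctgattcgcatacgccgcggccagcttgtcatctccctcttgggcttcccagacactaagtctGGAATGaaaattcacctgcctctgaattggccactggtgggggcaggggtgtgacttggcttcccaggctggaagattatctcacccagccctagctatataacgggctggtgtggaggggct

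Genes that fold proteins in the endoplasmic reticulum (ER) were higher together in cKO. The ER chaperones bind newly made secreted and membrane proteins, and the unfolded protein response raises them through the sensors ATF6, IRE1 (gene Ern1) and PERK (Eif2ak3). Of 24 measured genes of this list, 9 were called higher and 0 lower (37.5% against 3.26% of all genes called higher), 21 had a log2 ratio above 0, and the median was 0.82. All 16 chaperones were above 0, with a median of 0.98 and a summed level of 8246 CPM in CT and 11655 CPM in cKO.

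The chaperones with the most reads had the narrowest intervals. Hsp90b1 (chr10:86690209-86705509), the HSP90 of the ER, had 440 CPM in CT and 982 CPM in cKO, 2.23-fold higher (interval 2.07 to 2.41). Hspa5, the central HSP70 of the ER, had 1083 CPM in CT and 1963 CPM in cKO, which at 1.81-fold (1.72 to 1.91) stayed under the limit. Calr, the lectin chaperone calreticulin, had 494 CPM in CT and 872 CPM in cKO and stayed under it too. These 3 genes had at least 1187 reads in each library, and each interval excluded 1.

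Among the protein disulfide isomerases, which form and shuffle disulfide bonds, 3 of the 4 named here were called. Pdia4 (chr6:47796141-47813430) had 74.9 CPM in CT and 233 CPM in cKO (3.1-fold), Pdia6 (chr12:17266545-17284770) had 34.1 CPM in CT and 100 CPM in cKO (2.91-fold), and Pdia3 (chr2:121413775-121438687) had 264 CPM in CT and 569 CPM in cKO (2.16-fold). P4hb, which is also a subunit of the collagen prolyl hydroxylase, had 187 CPM in CT and 340 CPM in cKO (1.81-fold). The other called chaperone genes encode co-chaperones and secreted ER factors. Manf, a secreted ER stress factor, had 42.6 CPM in CT and 160 CPM in cKO (3.71-fold, interval 3.0 to 4.71). Hyou1, a nucleotide exchange factor for Hspa5, had 68.6 CPM in CT and 187 CPM in cKO, and Creld2 had 21.1 CPM in CT and 51.4 CPM in cKO. Sdf2l1, which works with Hspa5, had 5 reads in CT and 23 in cKO.

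The sensors and degradation factors did not follow the chaperones as a group. Of 8, 1 was called (12.5% against 5.06% of all genes), and the median was 0.20. The called one was Syvn1, the ubiquitin ligase that removes misfolded ER proteins, with 24.8 CPM in CT and 55.7 CPM in cKO. Atf6 had 63.0 CPM in CT and 48.3 CPM in cKO, and Ern1 and Eif2ak3 had log2 ratios of 0.09 and 0.31 with intervals that included 1. Herpud1, a degradation factor that ER stress is known to raise, had 355 CPM in CT and 207 CPM in cKO, a ratio of 0.582 (interval 0.512 to 0.659), the opposite way to the chaperones. Ddit3, the factor CHOP of the PERK branch, had 10 reads in CT and 13 in cKO, and Atf4 of the same branch had 122 CPM in CT and 116 CPM in cKO. Cytosolic and mitochondrial heat shock genes differed from the ER group in their counts. Of 22, 1 was called (4.55% against 5.06% of all genes), and the median was 0.11. That one was Dnaja1, a cytosolic HSP40, with 12.6 CPM in CT and 34.3 CPM in cKO.

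**Figure D3:**
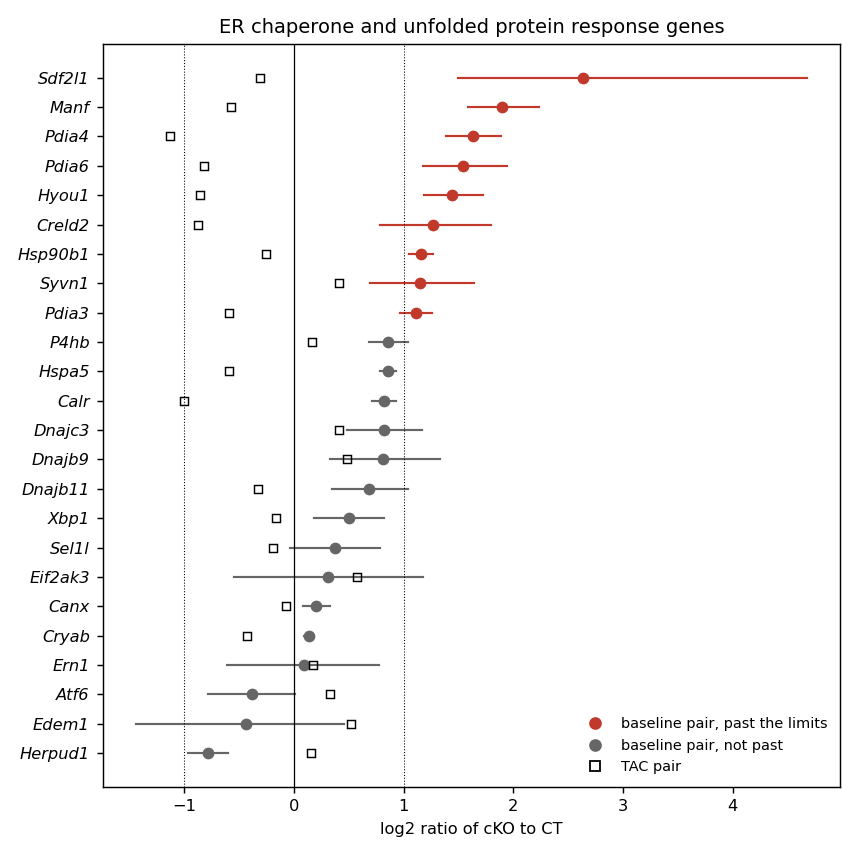
Log2 ratio of cKO to CT for the 24 measured ER genes in the baseline pair (circles, with 95% counting intervals as lines) and in the TAC pair (open squares, intervals not drawn); dotted lines mark 2-fold. At baseline 21 genes lie right of 0 and 9 are past the limits, while the TAC pair has a median of -0.22.

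The ER stress element is the textbook site through which ATF6 and NF-Y raise ER chaperones. Promoters of 5 genes of the list are shown for it, those of the 4 called members that hold it and of Hspa5. The motif searched was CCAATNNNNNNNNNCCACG on either strand (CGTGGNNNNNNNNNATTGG in reverse), in the same 250 bases. It was present in 35 of 27025 RefSeq promoters (0.130%), in 15 of 9522 measured genes (0.158%), and in 8 of 20 genes of the ER list with a promoter (40%). It was in 5 of 294 genes called higher (1.70%), 4 of them on the ER list, and in 0 of 163 called lower. The list was drawn up from genes known to respond to ER stress, so its own share is no independent finding. Of the 15 measured genes with the element, 8 belong to the list and all of these were above 0 at baseline, and of the 7 others 4 were above 0. The list members with the element that are not shown were Canx (log2 ratio 0.20), Dnajc3 (0.82) and Calr (0.82), none of them called. Capitals mark the element only. It begins 65 bases before the start in Hspa5 (chr2:34771840-34772089, plus strand), 212 and 107 bases before it in Hsp90b1 (chr10:86705445-86705694, minus strand), 98 in Pdia6 (chr12:17266339-17266588, plus), 126 in Creld2 (chr15:88819396-88819645, plus) and 44 in Syvn1 (chr19:6046326-6046575, plus). The second match of Hsp90b1 and the match of Creld2 read in reverse.
Hspa5: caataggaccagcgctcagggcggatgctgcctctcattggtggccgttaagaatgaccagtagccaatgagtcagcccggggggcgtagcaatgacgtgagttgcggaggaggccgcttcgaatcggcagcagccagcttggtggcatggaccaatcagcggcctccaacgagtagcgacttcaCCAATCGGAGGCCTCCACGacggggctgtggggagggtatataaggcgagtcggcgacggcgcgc
Hsp90b1: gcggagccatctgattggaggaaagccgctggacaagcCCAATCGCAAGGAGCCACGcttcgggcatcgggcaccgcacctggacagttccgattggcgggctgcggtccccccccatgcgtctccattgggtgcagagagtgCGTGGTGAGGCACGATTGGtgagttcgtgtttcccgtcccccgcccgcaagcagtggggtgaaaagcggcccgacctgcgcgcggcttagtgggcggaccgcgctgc
Pdia6: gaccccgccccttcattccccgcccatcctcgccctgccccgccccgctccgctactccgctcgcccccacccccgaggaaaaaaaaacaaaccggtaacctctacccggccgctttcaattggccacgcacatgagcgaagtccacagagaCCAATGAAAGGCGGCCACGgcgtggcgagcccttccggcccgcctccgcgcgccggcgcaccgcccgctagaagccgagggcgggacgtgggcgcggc
Creld2: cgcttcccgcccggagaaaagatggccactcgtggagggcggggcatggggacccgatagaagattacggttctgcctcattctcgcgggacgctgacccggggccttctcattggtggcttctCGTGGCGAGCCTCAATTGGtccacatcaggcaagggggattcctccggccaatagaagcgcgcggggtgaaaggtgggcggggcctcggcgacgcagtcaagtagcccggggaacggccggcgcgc
Syvn1: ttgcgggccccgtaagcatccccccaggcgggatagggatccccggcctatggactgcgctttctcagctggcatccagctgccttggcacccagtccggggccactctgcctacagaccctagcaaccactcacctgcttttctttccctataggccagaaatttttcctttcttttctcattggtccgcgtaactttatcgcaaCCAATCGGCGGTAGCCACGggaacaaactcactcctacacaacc
Outside the ER list the element was also in Hnrnpa3, an RNA-binding protein gene with close copies, which had 1 read in CT and 6 in cKO and is uncertain, and in Acacb, the acetyl-CoA carboxylase that limits fatty acid import, which had a log2 ratio of -0.76. The other 5 were not called: Pan2 (-0.15), Xlr3a (-0.01), Adcy3 (0.42), Alg12 (0.54) and Zfp57 (0.62). A promoter that holds the element therefore did not go with a higher level in every case.

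Collagen and matrix genes were higher in cKO in many cases. In a whole heart, more cells of a type and more RNA per cell cannot be told apart, here and for all cell type markers below. Of 20 measured collagen genes, 7 were called higher and 1 lower (40% called against 5.06% of all genes), with a median of 0.99 and a summed level of 1359 CPM in CT and 2642 CPM in cKO. Of the 5 fibrillar collagens 4 were called. Col3a1 (chr1:45311538-45349706) had 109 CPM in CT and 464 CPM in cKO (4.23-fold, interval 3.71 to 4.87), Col1a1 had 109 CPM in CT and 280 CPM in cKO, and Col1a2 had 107 CPM in CT and 243 CPM in cKO. Col4a3, a basement membrane chain, was the lower one, with 8 reads in CT and 0 in cKO, only 1.62-fold lower against the floor of 3 reads. The main basement membrane chain Col4a1 had 328 CPM in CT and 463 CPM in cKO and was not called. Col15a1, a collagen of the basement membrane zone, had 41.1 CPM in CT and 115 CPM in cKO.

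Matricellular proteins, proteoglycans and elastic fibre genes gave 16 higher and 1 lower of 39 (43.6% called against 5.06% of all genes), with a median of 0.82. Postn, the periostin of activated fibroblasts, had 23.7 CPM in CT and 136 CPM in cKO, with some shared reads. Tnc, tenascin C of remodelling tissue, had 2.59 CPM in CT and 16.5 CPM in cKO. Thbs4, a thrombospondin of loaded muscle, had 2.97 CPM in CT and 15.3 CPM in cKO. The exception was its relative Thbs2, with 81.9 CPM in CT and 39.1 CPM in cKO (ratio 0.481, interval 0.356 to 0.634). Of the elastic fibre genes, Ltbp2 had 3.34 CPM in CT and 19.0 CPM in cKO, and Mfap4 had 3.71 CPM in CT and 19.6 CPM in cKO. Wisp1, a relative of Ctgf, had 0 reads in CT and 6 in cKO, 3.3-fold higher against the floor of 3 reads.

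Enzymes that process collagen followed in part, with 6 of 31 called higher (19.4% against 3.26% of all genes) and a median of 0.43. The 6 became 3 with 5 CPM added and with the wider interval. Pcolce, which enhances the cleavage of procollagen, had 72.7 CPM in CT and 161 CPM in cKO, and Adamts2, which cleaves it, had 19.3 CPM in CT and 44.7 CPM in cKO. The crosslinking enzymes Loxl2 (19 reads in CT, 27 in cKO) and Loxl3 (10 and 17) were called, while Lox had 14 and 6. Timp1, an inhibitor of metalloproteases, had 7.66 CPM in CT and 64.8 CPM in cKO (8.02-fold, shared reads). In the TGF-beta family 6 of 33 were called higher (18.2% against 3.26% of all genes) with a median of 0.06. Tgfb1 had 36.7 CPM in CT and 37.9 CPM in cKO, whereas the follistatin-like genes Fstl1 (25.9 CPM in CT, 80.1 CPM in cKO) and Fstl3 (4.45 and 21.4 CPM) were higher.

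Fibroblast markers were mostly higher in cKO. Of 14 measured, 12 were above 0 and 7 were called higher (50% against 3.26% of all genes), with a median of 0.86. Those called were all matrix or secreted genes, such as Mfap5 (12.6 CPM in CT, 41.6 CPM in cKO), Lum (22.2 and 50.8 CPM) and Pi16 (110 and 222 CPM). The markers Pdgfra and Tcf21 were not called. Pdgfra, a growth factor receptor of fibroblasts, had 51.9 CPM in CT and 52.6 CPM in cKO, and the transcription factor Tcf21 had 34 reads in CT and 14 in cKO, a ratio with an interval of 0.337 to 1.3. The summed level of the list was 4266 CPM in CT and 5872 CPM in cKO, with no marker at 0. The part of fibroblast number in the matrix result was not tested. Endothelial markers had 0 of 14 called and a median of -0.14.

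Genes of macrophages and of the chemokines that draw them were higher in cKO. All 18 macrophage markers had a log2 ratio above 0, 11 were called higher (61.1% against 3.26% of all genes), and the median was 1.15. The 11 became 6 with 5 CPM added and with the wider interval. Their summed level was 495 CPM in CT and 1119 CPM in cKO, with no marker at 0. Adgre1 (chr17:57358691-57483527), which encodes F4/80, had 23.0 CPM in CT and 85.0 CPM in cKO (3.64-fold, interval 2.72 to 5.07). Lyz2, lysozyme, had 119 CPM in CT and 339 CPM in cKO. Itgam, the integrin CD11b, had 11.1 CPM in CT and 28.1 CPM in cKO. Cd163, a receptor of resident macrophages, had 27.2 CPM in CT and 35.5 CPM in cKO and was not called. Neutrophil genes went both ways: S100a9 had 49 reads in CT and 8 in cKO, and Lcn2, lipocalin 2, had 38 and 80.

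Of 33 measured chemokine, cytokine and receptor genes, 11 were called higher and 0 lower (33.3% higher against 3.26% of all genes), most of them on few reads. The 11 became 5 with 5 CPM added and with the wider interval. Ccl2 (chr11:82035571-82037453), which draws monocytes, had 4 reads in CT and 32 in cKO (10.2-fold, interval 4.68 to 51.4). Its neighbours in the same cluster, Ccl7 (3 reads in CT, 19 in cKO) and Ccl12 (3 and 9), were also higher. On the receptor side Ccr2, the receptor of Ccl2, had 2 reads in CT and 7 in cKO, and Csf2rb, the common beta chain of myeloid growth factor receptors, had 1 and 10. Csf1r, the receptor that macrophages need to survive, had 54.1 CPM in CT and 114 CPM in cKO, and was the receptor with the most reads among those called. Cxcl13, which draws B cells, had 4 reads in CT and 25 in cKO.

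Complement and antigen presentation genes gave 9 higher and 0 lower of 30 (30% higher against 3.26% of all genes), with a median of 0.80. The 9 became 4 with 5 CPM added and with the wider interval. The complement genes C1qa (48.9 CPM in CT, 135 CPM in cKO) and the receptor C3ar1 (4.82 and 18.4 CPM) were among them. In the MHC class II group 4 of 8 were called. Cd74, the invariant chain, had 48.4 CPM in CT and 164 CPM in cKO with shared reads, H2-Aa had 16.3 CPM in CT and 45.3 CPM in cKO, H2-Eb1 had 5.56 and 14.7 CPM, and H2-Ab1 had 5.19 and 13.5 CPM. None of the 8 class I genes was called (median 0.36). Interferon-induced genes were called in 1 of 30 cases (3.33% against 5.06% of all genes), and that one was lower. It was Gbp6, a guanylate-binding GTPase, with 116 CPM in CT and 28.1 CPM in cKO. Its neighbour Gbp10 had 79.0 CPM in CT and 17.1 CPM in cKO. The 2 genes are close relatives with whole reads only, and whether reads were placed in the right one was not tested.

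Genes for burning fat lay almost without exception below the CT library, mostly by less than 2-fold. Of 41 measured genes for the uptake and oxidation of fatty acids, 40 had a log2 ratio below 0, 4 were called lower and 1 higher (12.2% in all against 5.06% of all genes), and the median was -0.52. Scaled to total reads, 39 of the 41 were below 0. In the uptake group Cd36, the fatty acid carrier of the cell membrane, had 6046 CPM in CT and 4183 CPM in cKO (ratio 0.692, interval 0.672 to 0.712). For import into mitochondria, Cpt1b had 1639 CPM in CT and 1195 CPM in cKO. Of the 16 genes of the beta-oxidation spiral all were below 0, from -1.01 to -0.31. Acadm, the medium-chain dehydrogenase, had 1906 CPM in CT and 1406 CPM in cKO, and Ech1 (chr7:28825217-28832247), an isomerase for unsaturated fatty acids, had 3389 CPM in CT and 1687 CPM in cKO. Ech1 lies on the 2-fold limit, and scaled to total reads its log2 ratio was -0.91.

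The genes furthest below were regulators. Pdk4 (chr6:5483351-5496309), which blocks the entry of pyruvate into the TCA cycle when fat is burnt, had 482 CPM in CT and 120 CPM in cKO (ratio 0.25, interval 0.213 to 0.29). Ucp3, a mitochondrial carrier, had 35.6 CPM in CT and 7.34 CPM in cKO, and Acot2, a mitochondrial acyl-CoA thioesterase, had 214 CPM in CT and 67.9 CPM in cKO. Acot1, the cytosolic relative of Acot2 and close to it in sequence, was the 1 higher gene, with 14.5 CPM in CT and 30.0 CPM in cKO. Ppargc1a, the coactivator PGC-1 alpha, had 355 CPM in CT and 194 CPM in cKO (0.547, interval 0.479 to 0.621), and its partner Ppara had 110 CPM in CT and 72.8 CPM in cKO. Neither was past 2-fold. The same list had a median of -0.10 in the TAC pair.

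Other mitochondrial and fuel genes were shifted by smaller amounts. All 16 TCA cycle genes were below 0, with a median of -0.27 and none called (14 of them below 0 when scaled to total reads). Of the 37 complex I subunits none was called, 25 were below 0 and the median was -0.12, and for complexes II to V the median was -0.17. Scaled to total reads, these 2 medians were -0.03 and -0.07, and 21 of the complex I subunits were below 0. The 8 cardiomyocyte markers had a median of -0.12 in the deposited scaling, with 7 below 0. Among 26 genes for the breakdown of amino acids and ketones 23 were below 0, and the median was -0.42. Of these genes 2 were called lower (7.69% called against 5.06% of all genes). Among those called was Cdo1, which degrades cysteine, with 28.5 CPM in CT and 4.89 CPM in cKO. The branched-chain dehydrogenase gene Bckdha had 243 CPM in CT and 178 CPM in cKO.

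Genes of glucose use gave 4 lower and 0 higher of 39 (10.3% called against 5.06% of all genes), with a median of -0.31. The 4 include Pdk4, which the fatty acid list also holds. Irs1 and Irs2 pass on the signal of the insulin receptor. Irs1 had 49.3 CPM in CT and 23.9 CPM in cKO, and Irs2 had 30.4 CPM in CT and 13.5 CPM in cKO. Slc2a4, the insulin-regulated glucose carrier, had 442 CPM in CT and 301 CPM in cKO, while Slc2a1, the carrier of the fetal heart, had 62 reads in CT and 50 in cKO, an interval of 0.898 to 1.96. In lipid synthesis Srebf1, the master factor of lipogenesis, had 73.4 CPM in CT and 31.8 CPM in cKO, whereas the desaturase gene Scd4 had 8.15 CPM in CT and 27.5 CPM in cKO. That list gave 3 higher and 2 lower of 28 (17.9% called against 5.06% of all genes).

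Channels and junctions of the cardiomyocyte showed single differences. Of 20 potassium channel genes, 3 were called lower and 1 higher (20% called against 5.06% of all genes), and the median was -0.24. Lrrc52 was 1 of the lower genes. Kcnd2, a pore of the transient outward current, had 47 reads in CT and 10 in cKO, and Kcnj3, a G protein-gated channel, had 97.5 and 19.5 reads, some of them shared. Kcna4, the pore of the slow outward current, had 1 read in CT and 6 in cKO (interval of the ratio 1.2 to 455). Of the sodium channels Scn4a, the skeletal muscle form, had 91.2 CPM in CT and 33.6 CPM in cKO. Gja1 (chr10:56377330-56402513), connexin 43 of the gap junctions, had 204 CPM in CT and 425 CPM in cKO (2.08-fold, interval 1.86 to 2.33). Gja4, a vascular connexin, had 19 reads in CT and 3 in cKO. In the adhesion list 2 of 27 were called (7.41% against 5.06% of all genes), both lower and both with shared reads. They were Dmd, dystrophin, with 62.8 CPM in CT and 26.0 CPM in cKO, and Ctnna3, an alpha-catenin, with 32.1 CPM in CT and 12.8 CPM in cKO. Both are very long genes.

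Of 27 cardiac transcription factors 3 were called lower and 0 higher (11.1% called against 5.06% of all genes), with a median of -0.13. Klf9, a target of glucocorticoids and thyroid hormone, had 40.8 CPM in CT and 13.5 CPM in cKO. Tbx5, a T-box factor of the atria and left ventricle, had 53.4 CPM in CT and 23.2 CPM in cKO (ratio 0.441, interval 0.296 to 0.626). Esrrb, an estrogen-related receptor, had 26.7 CPM in CT and 12.2 CPM in cKO. Gata4 and Nkx2-5, which act with Tbx5 in heart development, stood on opposite sides of 0 with log2 ratios of 0.49 and -0.70, neither called. Adra1b, an alpha-1 adrenergic receptor, had 83.0 CPM in CT and 31.8 CPM in cKO. It was the 1 called gene of 25 in the renin-angiotensin, endothelin and adrenergic list (4% against 5.06% of all genes). Zbtb16, a zinc finger factor that glucocorticoids raise, had 271 CPM in CT and 95.4 CPM in cKO. Immediate early genes went both ways, 3 higher and 2 lower of 21 (23.8% called against 5.06% of all genes). Egr1 had 6.67 CPM in CT and 19.0 CPM in cKO, and Nr4a1 had 82.7 CPM in CT and 34.9 CPM in cKO.

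Cell cycle genes gave 5 higher and 0 lower of 43, with a median of 0.37, on few reads (11.6% higher against 3.26% of all genes). The 5 became 1 with 5 CPM added, with the wider interval, and when a mean of at least 5 CPM was required, and the first and the last of these lowered the median to 0.20 and 0.18. Of all genes with fewer than 20 reads 196 were called higher and 24 lower, so calls in the higher direction alone are common at this depth. Mki67, the proliferation marker Ki-67, had 16 reads in CT and 29 in cKO (2.84-fold, interval 1.57 to 5.9). Kif11, a spindle motor, had 4 reads in CT and 13 in cKO, and Cenpe, a kinetochore motor, had 5 and 10. Ccnb1 and E2f1 had 0 reads in CT and 4 in cKO each. Each was 2.2-fold higher against the floor of 3 reads, with an interval of the ratio that began at 1.09. Cdk1, the kinase of mitosis, had 10 reads in CT and 6 in cKO, and Top2a had 9 and 7, so these central cycle genes were not called. The 14 genes of mitosis had a summed level of 23.0 CPM in CT and 52.6 CPM in cKO. Whole-heart RNA does not tell which cells they came from. The 7 cell cycle inhibitors had a median of -0.48, and 0 of them were called.

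Genes of translation, protein breakdown and the antioxidant response had few or no calls, beside 5.06% of all genes called. The 35 genes of translation had 0 called and a median of 0.05, and the 41 genes of ubiquitin ligases, proteasome and autophagy had 1 (Klhl33) and a median of -0.12. The 28 antioxidant targets of Nrf2 had 1 called, Srxn1, and a median of 0.04. Smooth muscle genes were called more often, 1 higher and 2 lower of 8 (37.5% called against 5.06% of all genes). The smooth muscle actins went apart: Acta2 had 202 CPM in CT and 594 CPM in cKO, and Actg2 had 31.9 CPM in CT and 6.12 CPM in cKO. Tagln, which usually goes with them, had 22.6 CPM in CT and 10.4 CPM in cKO. The 10 mural cell markers had 1 called higher (Acta2) and 1 lower (Tagln), 20% in all, and a median of -0.12. None was at 0, and the part of mural cells in these values was not tested. Actin genes are much alike in their coding sequence, so their reads may be partly misplaced.

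**Figure D4:**
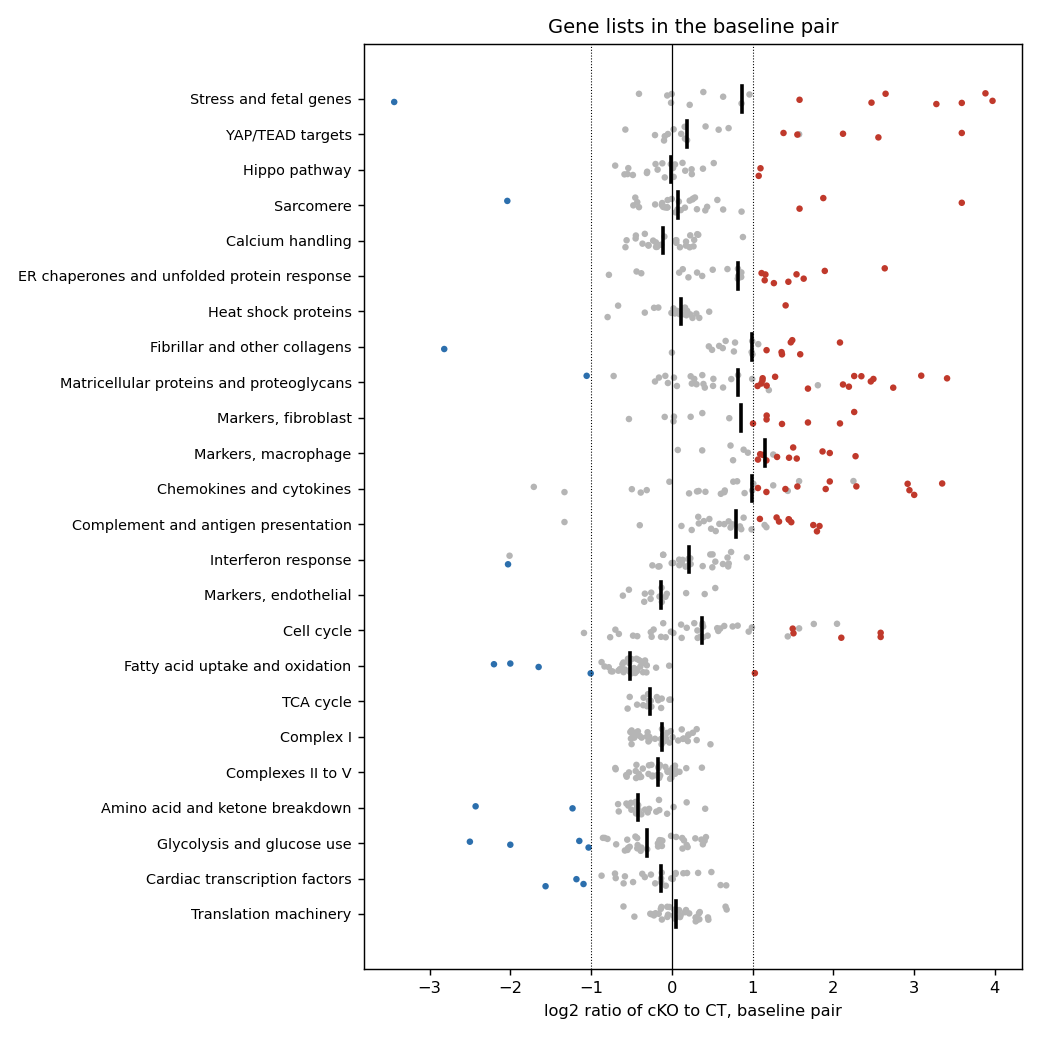
Log2 ratio of cKO to CT in the baseline pair for each measured member of 24 gene lists (points; red called higher, blue called lower, grey not called), with the median of each list as a black bar, the median of all genes as a solid line and 2-fold as dotted lines. Medians reach 1.15 for macrophage markers and 0.99 for collagens, and -0.52 for fatty acid genes.

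The same genes were then looked up in the TAC pair, where cKO TAC was set against CT TAC. In that pair 621 genes were called (5.0%), 363 higher (2.93%) and 258 lower (2.08%). Of the 404 genes higher at baseline, 38 were also higher under TAC (9.41%), 15 were lower, and 61.1% had a TAC log2 ratio above 0, against 50.5% of all genes. Of the 224 genes lower at baseline, 13 were also lower under TAC (5.80%) and 19 were higher (8.48%). In all 51 genes were called the same way in both pairs (0.411% of all genes, 8.12% of the baseline calls and 8.21% of the TAC calls) and 34 opposite ways (0.274%).

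Among those called the same way, Ctgf had 291 CPM in CT TAC and 852 CPM in cKO TAC, and Acta2 had 161 and 490 CPM. Lcn2 had 9.48 CPM in CT TAC and 38.1 CPM in cKO TAC, Serpina3n, an acute phase protease inhibitor, had 173 and 669 CPM after 146 CPM in CT and 298 CPM in cKO at baseline, and Scd4 had 4.99 and 50 CPM. These genes were therefore higher in cKO with and without the load. Eps8l1, an actin regulator, was lower in both, with 31 reads in CT and 1 in cKO at baseline and 26 and 4 under TAC. Actg2 was also lower in both, with 75 reads in CT TAC and 3 in cKO TAC. Nppa and Ankrd1 were not called under TAC. Nppa had 3594 CPM in CT TAC and 6487 CPM in cKO TAC, and Ankrd1 had 8081 and 8624 CPM, so the cKO baseline value of 9962 CPM for Ankrd1 lay above both TAC libraries.

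In the TAC pair the ER chaperones lay mostly on the other side of 0, and macrophage markers on the same side with a smaller median. The 16 chaperones had a median of -0.50 there. In that pair 2.93% of all genes were called higher and 2.08% lower. Of the 24 ER genes 0 were called higher and 2 lower, with a median of -0.22. Pdia4 had 107 CPM in CT TAC and 48.4 CPM in cKO TAC, and Calr had 762 and 380 CPM. Hyou1 had 69.4 CPM in CT TAC and 38.1 CPM in cKO TAC, the opposite order to baseline. Macrophage markers had 2 of 18 called higher, 0 lower and a median of 0.33, with summed levels of 736 and 1007 CPM. The 20 collagens had 0 called and a median of 0.06. Their summed levels were 4440 CPM in CT TAC and 4287 CPM in cKO TAC, both above the 2642 CPM of cKO at baseline. The difference between the pairs was not tested, as each rests on 1 library a side.

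**Figure D5:**
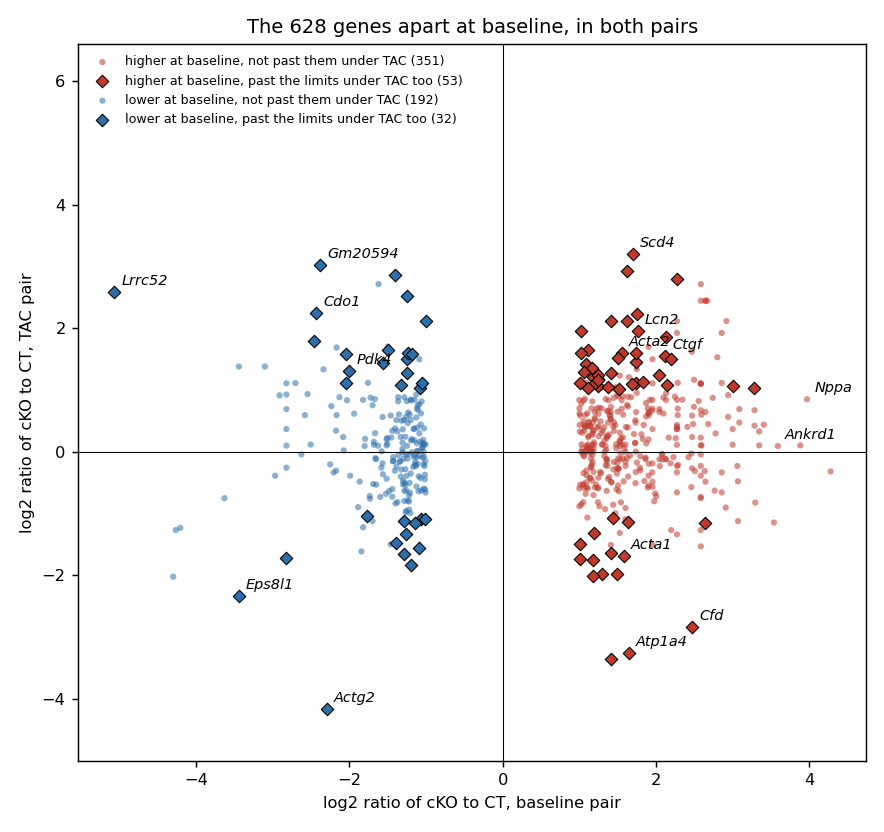
Log2 ratio of cKO to CT in the baseline pair (horizontal) and in the TAC pair (vertical) for the 628 genes called at baseline, with those also called under TAC as outlined diamonds. The empty band around 0 on the horizontal axis is set by the choice of genes; 38 higher and 13 lower genes are called the same way under TAC, and 15 and 19 the opposite way.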

How the data were processed

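Total RNA of mouse hearts was sequenced on Illumina libraries, per the labels' protocols. Tools listed in the submitters' processing notes are CASAVA, HISAT2 and edgeR, with mm10 as the build and no versions or roles. For the counter, annotation and gene filter the sources used here give nothing. The authors deposited 1 value per gene and library on a log2 scale, and the values themselves show log2 CPM. In each library they fall on a grid, from which 1 read was worth 0.371 CPM in CT baseline and 0.612 CPM in cKO baseline, and an amount that averaged 1 read over the libraries had been added before the logarithm. Recovered reads were whole (within 0.01) for 88.6% to 89.0% of genes. The other genes had parts of reads, 2003 of them in the baseline pair and 80 of these called. Such reads, termed shared reads here, were split between places or between overlapping genes, and the values do not tell which.

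Log2 ratios were taken as cKO minus CT in the deposited log2 values, and the added amount pulls those of genes with few reads towards 0. Clopper-Pearson 95% intervals of the ratio and exact Poisson intervals of CPM were computed with Python 3.11.15 and SciPy 1.17.1 from rounded reads and tested on simulated counts. For genes at 0 reads the floor was 3 reads in that library. A fold against this floor leaves out the counting error of the other library. No test across genes was run, as each group holds 1 library, and the labels do not say whether it came from 1 heart or several. Every pair of libraries differed by more than sampling noise (chi-square over its degrees of freedom from 7.67 to 21.0). CPM is not scaled by gene length, so levels are not compared between genes. Gene positions are from GENCODE M21 and promoters from RefSeq GRCm38.p6.

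The comparison, the 38 gene lists and the 18 marker lists were chosen with earlier results of these data known. Named genes are the 20 highest and 20 lowest called ratios with at least 20 reads, the 10 largest CPM differences each way, called and defining members of the lists, Sav1, and 10 genes each called the same and opposite ways in the TAC pair. Further list members, the genes nearest the 2-fold limit and the genes outside the ER list that hold the ER stress element were named after their values were seen. Some named genes are not reported here. Alternatives changed the scaling, the added amount, the filter, the fold, the interval and the use of shared reads.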

Additional observations from a re-analysis of the deposited data

Results flagged for a closer look

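For 16 of the named genes reported here the library labelled cKO lay on one side of CT at baseline and on the other side under TAC, past the limits in both pairs. With 1 library per group this difference between the pairs was not tested, and the values below are the TAC log2 ratio minus the baseline log2 ratio.

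Genes lower in cKO at baseline and higher under TAC were, in order of that difference, Lrrc52 (7.65), Gm20594 (5.40), Cdo1 (4.67), Wfdc1 (4.25), Pdlim3 (3.63), Pdk4 (3.31), Twf1 (3.17), Zfp385a (3.14) and Cebpb (2.76). For Lrrc52 the reads were 264 in CT and 4 in cKO at baseline, and 5 and 32 under TAC. For Gm20594 the levels were 1703 and 325 CPM at baseline and 125 and 1018 CPM under TAC, so the CT baseline and the cKO TAC library were both high. Pdk4 had the same pattern, with 482 CPM in CT and 120 CPM in cKO at baseline and 117 and 290 CPM under TAC. Cebpb, a transcription factor of the acute phase and of energy metabolism, had 50 and 20.8 CPM at baseline and 10.3 and 30.3 CPM under TAC.

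Genes higher in cKO at baseline and lower under TAC were Cfd (-5.30), Atp1a4 (-4.91), Nmrk2 (-3.79), Cenpe (-3.47), Acta1 (-3.27), Pdia4 (-2.77) and Egr1 (-2.52). Atp1a4, a sodium pump subunit best known from sperm, had 17 and 34 reads at baseline and 92 and 8 under TAC. Acta1 had 661 and 1976 CPM at baseline and 9347 and 2906 CPM under TAC. Cfd, the adipocyte protease adipsin, rested on 1 and 7 reads at baseline and 6 and 0 under TAC, and Nmrk2 on 1 and 8 reads at baseline.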

How the results depend on the processing

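The count of genes called apart depended on the limits. It was 628 as reported and 254 with 5 CPM added to each value, 1337 at a 1.5-fold limit, 261 at 3-fold and 276 with a wider counting interval. Genes higher in cKO numbered 404 as reported and 155, 721, 192 and 165 under these 4 settings, and genes lower 224 and 99, 616, 69 and 111. With 5 CPM added, members of the lists called fell from 153 to 93 in number, and genes called the same way in both pairs from 51 to 17. With 5 CPM added and with the wider interval alike, 9 ER genes and 7 collagens were called higher, the counts reported. Higher lipid synthesis genes went from 3 to 1 under both, growth factor genes from 2 to 0 under both, and lower glucose genes from 4 to 2 with 5 CPM added. Adding more lowers the ratio of genes with few reads by construction. Scaled to total reads, 490 genes were higher and 173 lower, and the median log2 ratio of all genes was 0.10. Of the called genes named by the rule, none changed sign under the alternatives run.

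Leaving out a replicate was not run, since each group is 1 library. No paired analysis was possible because the groups share no second replicate. At a median of 48 and 30 reads per gene, a 2-fold difference was not detectable for many genes at this depth, and chemokine, receptor and mitosis genes rest on single-digit counts in CT.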

Other observations

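Lysosome and phagocytosis genes were also higher in cKO at baseline, with a median log2 ratio of 0.42. Of 36, 9 were called higher (25% against 3.26% of all genes) and 0 lower. The 9 became 2 with 5 CPM added to each value and 3 with the wider counting interval. In the TAC pair, where 2.93% of all genes were called higher, 8 of the 36 were called higher and 0 lower, with a median of 0.34. Of these 8, 6 were among the 14 phagocytosis genes, whose median was 0.81 in the TAC pair and 0.91 at baseline. Lgals3, the galectin of activated macrophages, had 1 read in CT and 6 in cKO at baseline and 4 and 31 under TAC. Gpnmb, a glycoprotein of lipid-laden macrophages, had 2 and 8 reads at baseline and 2 and 9 under TAC. Ctsz, a cathepsin, had 30.0 CPM in CT and 64.8 CPM in cKO. The summed level of the whole list differed little, with 6870 CPM in CT and 7110 CPM in cKO, but its groups went different ways. The sum was 3879 CPM in CT and 3518 CPM in cKO for enzymes. For cathepsins it was 2614 and 3025 CPM, and for phagocytosis genes 378 and 567 CPM.

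Of 17 genes of the oncostatin M and gp130 response 4 were called higher at baseline (23.5% against 3.26% of all genes). Under TAC 6 were called higher, where 2.93% of all genes were. The medians were 0.32 at baseline and 0.84 under TAC. Socs3, the feedback inhibitor of this pathway, had 2.22 CPM in CT and 9.79 CPM in cKO. In the growth factor list 2 of 33 were called higher and 1 lower (9.09% called against 5.06% of all genes). Nrg1, a ligand of ErbB receptors, had 3 reads in CT and 8 in cKO, and Fgf18 had 8 and 16. Angpt1, which stabilises vessels, had 91 and 25. Clock genes had 2 of 19 called higher (10.5% against 3.26% of all genes), Bhlhe41 (25 and 37 reads) and Npas2 (19 and 25). Cytosolic ribosomal protein genes gave 4 higher and 2 lower of 86 (6.98% called, near the 5.06% of all genes), with a median of 0.15. They have many near-identical copies that make single values uncertain. Mitochondrial ribosomal protein genes gave 1 lower of 77 (1.30% called), with a median of -0.11. Erythroid markers had a summed level of 1093 CPM in CT and 1566 CPM in cKO, with 0 of 4 called.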
